A study of Rattus norvegicus with 6 samples.

Results

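Complement and coagulation genes were examined in kidneys of heterozygous Han:SPRD Cy/+ rats and of wild-type +/+ rats, as 56 named genes of 3 groups: 21 complement components, 7 complement regulators and receptors, and 28 coagulation or fibrinolysis genes. A gene was included when a probe set of the array carried its symbol alone, and the probe set of highest mean log2 signal over the 6 arrays stood for the gene. In this way 48 of the 56 genes could be read, among 14217 genes named by 1 symbol on the array. C2, Cfb, C4a, C4b, C7 and Kng1 occur only in joint entries with other genes, and Cd59 and F7 had no probe set under these symbols. Cy/+ rats carry a missense mutation in Anks6 on 1 allele in all their cells and develop slowly progressing cystic kidneys, and +/+ rats of the same colony lack the mutation. All animals were male, and the sources used here name no treatment for the array samples and do not state that there was none. The labels give their age as 10 weeks and the methods a younger age. RNA came from whole kidney tissue, with 3 Cy/+ and 3 +/+ samples and 1 array per sample. No source used here states that each sample came from a separate rat, so a p-value speaks only of the spread among them, which may be technical.

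Complement is a cascade of plasma proteases and opsonins. C1q with C1r and C1s starts the classical pathway, mannose-binding lectins with the MASP proteases start the lectin pathway, and factor B with factor D drives the alternative pathway. All routes meet at C3, and C5 to C9 build the membrane attack complex. Coagulation is a second protease cascade that ends in thrombin and fibrin, held back by antithrombin, protein C and the tissue factor pathway inhibitor, while plasmin dissolves fibrin. Most plasma proteins of both cascades are made in the liver, and tubular cells, macrophages, fibroblasts and endothelium make some of them locally in the kidney.

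The arrays of 1 genotype resembled each other more closely than those of the other, with Pearson r of 0.982 to 0.99 between Cy/+ arrays, 0.997 between +/+ arrays and 0.907 to 0.94 across genotypes (taken over the log2 signal of every probe set; probe sets are not independent). Spiked-in hybridization controls, which carry no rat RNA, were brighter on Cy/+ arrays (median 1.83-fold), as were poly-A controls (median 3.82-fold), and the 3' to 5' signal ratio of beta-actin, which reflects how intact the RNA is, was 3.22 ± 0.265 in Cy/+ and 1.51 ± 0.00568 in +/+ kidneys (SD, n = 3 each; exact two-sided permutation test, p = 0.1, the smallest p that 3 against 3 allows). Their part in the differences below was not tested. Of the 15 members that were higher, 12 exceeded the 1.83-fold of the hybridization controls and 3 (C3, Cfi and A2m) the 3.82-fold of the poly-A controls. Over all genes, 66.7% of the 10645 tested passed limma's adjusted p of 0.05.

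Of the 48 genes with a probe set, 33 reached the threshold for testing, a geometric mean signal of 77.8 over the 6 arrays. Higher in Cy/+ kidneys were 15, lower 8, and 10 did not pass, which is 69.7% called, near the 66.7% of all genes. Changes of 2-fold or more, as measured, that passed made up 54.5% of the tested members and 22.3% of all genes. The members were chosen with earlier results of these data known, so these shares do not test a difference. The median log2 fold change, Cy/+ over +/+, was 0.32 for the members and 0.09 for all genes. Of the 33, 5 had a geometric mean below the threshold in 1 genotype only and passed the filter through the other. All 5 were called, and for these the fold is given as a bound against the threshold. They count in the 54.5% by their measured folds, though the bound of Cfd is 1.94. Every Cy/+ array lay above every +/+ array for 17 tested members, against 41.5% of all genes, and below for 8, against 33.1%. Over all genes 37.4% were higher and 29.3% lower, and whether the groups of members differ from each other was not tested: 9 of 12 tested complement components were higher and 1 was lower (median 1.05), 2 of 5 regulators and receptors were higher and 0 lower by limma (median 0.12; 2 were lower at an unadjusted p under 0.05, and 0 by the methods' test, an equal-variance test of each probe set with the same adjustment), and among 16 coagulation and fibrinolysis genes 4 were higher and 7 lower (median -0.085).

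**Figure D1:**
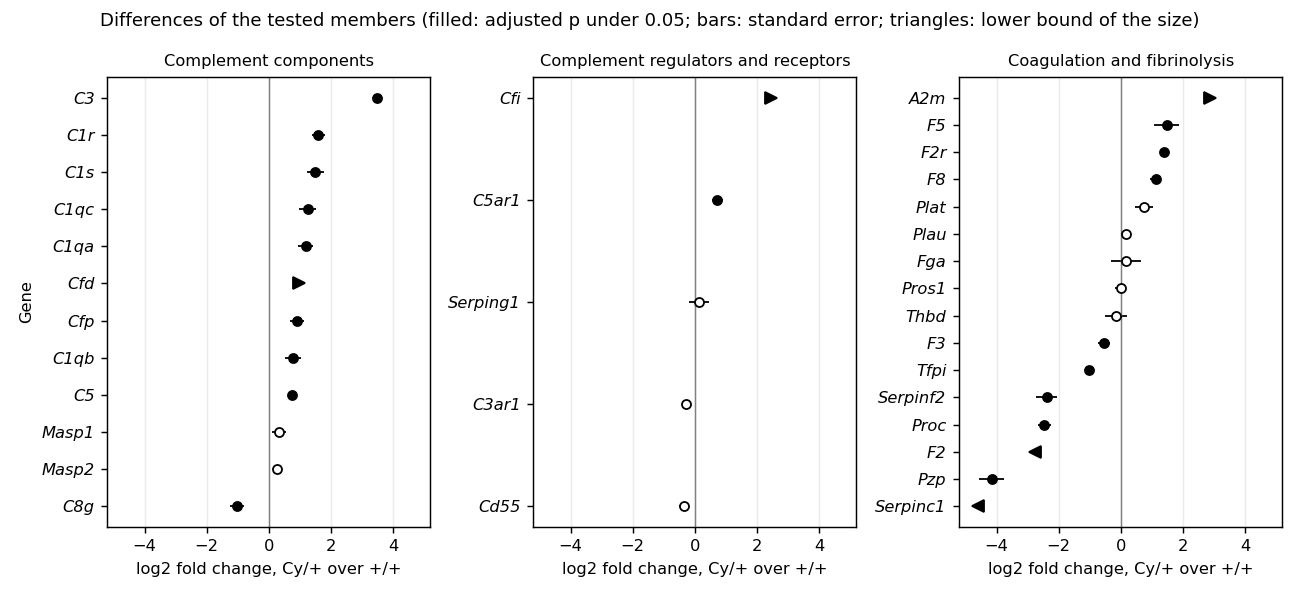
Fold change on a log2 scale, Cy/+ over +/+ kidneys, of every tested member by group, with bars for limma's standard error, filled points for genes past an adjusted p of 0.05 and open points for the others. Triangles stand at the bound for the 5 genes below the threshold in 1 genotype and point to the larger size. Complement components lie mostly right of 0 with C3 at 3.49, and coagulation genes lie on both sides, with Pzp at -4.16 and F2r at 1.38.

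C3, the protein on which all complement pathways converge, had signals of 2919, 3645 and 3488 in Cy/+ kidneys and of 332, 271 and 292 in +/+ kidneys. The genotypes lay far apart and the arrays of each stayed close together. C3 was 11.2-fold higher in Cy/+ kidneys (limma: log2 fold change 3.49, standard error 0.12, adjusted p = 1.36e-05). The 3 genes of C1q, the recognition molecule of the classical pathway, rose together. C1qa had signals of 2191, 1457 and 1075 in Cy/+ and of 675, 630.1 and 678 in +/+ kidneys, a log2 fold change of 1.19 ± 0.24 (± standard error from limma here and below, adjusted p = 0.00336). C1qc had 2204, 1291 and 958 in Cy/+ and 586, 556 and 623 in +/+ kidneys, a log2 fold change of 1.25 ± 0.28 (adjusted p = 0.00554). C1qb, the third chain, had 959, 637 and 434 in Cy/+ and 386, 359 and 389 in +/+ kidneys, a log2 fold change of 0.77 ± 0.26 (adjusted p = 0.0332). In each of the 3 genes the Cy/+ arrays kept the order 1, 2, 3 from high to low, and none overlapped a +/+ array. The call of C1qb was lost without Cy/+ replicate 2 or any +/+ replicate (adjusted p = 0.0648 to 0.0912) and with quantile normalization. In the rat assembly GRCr8 the 3 genes are direct neighbours.

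The proteases of the C1 complex were higher as well. C1r had signals of 3356, 2655 and 1922 in Cy/+ and of 917, 718 and 944 in +/+ kidneys (3.02-fold, adjusted p = 0.000502 from limma). C1s, its substrate and neighbour in the genome, had 5535, 3488 and 2533 in Cy/+ and 1337, 1033 and 1553 in +/+ kidneys (2.84-fold, adjusted p = 0.00277). Both followed the same order of Cy/+ arrays as the C1q genes. The proteases of the lectin pathway did not pass: Masp2 missed the threshold at 0.26 on the log2 scale (adjusted p = 0.0608), with Cy/+ arrays at 449 to 539 just above +/+ arrays at 387 to 434, and Masp1, whose arrays overlapped, stood at 0.32 (adjusted p = 0.237).

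In the alternative pathway, Cfd, the protease factor D that cleaves factor B, had signals of 215, 143 and 111 in Cy/+ kidneys and of 38.9, 54.4 and 47.2, below the threshold for testing, in +/+ kidneys. It was at least 1.94-fold higher in Cy/+ kidneys (adjusted p = 0.000793 from limma). Cfp encodes properdin, which stabilizes the C3 convertase. It had 323, 198 and 171 in Cy/+ and 131, 112 and 114 in +/+ kidneys, a log2 fold change of 0.90 (adjusted p = 0.0107), and its second probe set gave 1.12 (adjusted p = 0.000896). In the terminal pathway, C5 had 1606, 1167 and 1589 in Cy/+ and 924, 791 and 831 in +/+ kidneys (1.7-fold higher, adjusted p = 0.00246), with no overlap. C8g, the gamma chain of C8, was the component that was lower. It had 133, 219 and 239 in Cy/+ and 346, 455 and 379.7 in +/+ kidneys, a log2 fold change of -1.03 ± 0.23 (adjusted p = 0.00564). C6, C8a, C8b and C9, which join C5 and C8g in the membrane attack complex, had signals of 18.4 to 53.5 in Cy/+ and of 19.8 to 66.9 in +/+ kidneys, all below the threshold. Of these, C8b and C9 had every Cy/+ array below every +/+ array, and without a filter limma called both lower (adjusted p = 0.00333 and 0.0392).

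Complement genes of joint entries stand outside these counts, since their probe sets can measure either gene. The joint entry of C4b and C4a, the fourth component, had signals of 12890, 9325 and 10080 in Cy/+ and of 1793, 2173 and 1522 in +/+ kidneys (5.89-fold higher, adjusted p = 3.7e-05 from limma). All 4 probe sets of the joint entry of Cfb and C2, neighbouring genes that encode the proteases of the C3 convertases, were higher. The brightest of these had 577, 405 and 285 in Cy/+ and 116, 122 and 190.4 in +/+ kidneys (2.91-fold, adjusted p = 0.00266). For C7 the joint entry includes the tubulin gene Tubb4b, and its probe sets gave log2 fold changes of 1.75 (adjusted p = 0.000881) and 0.75 (adjusted p = 0.0972).

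**Figure D2:**
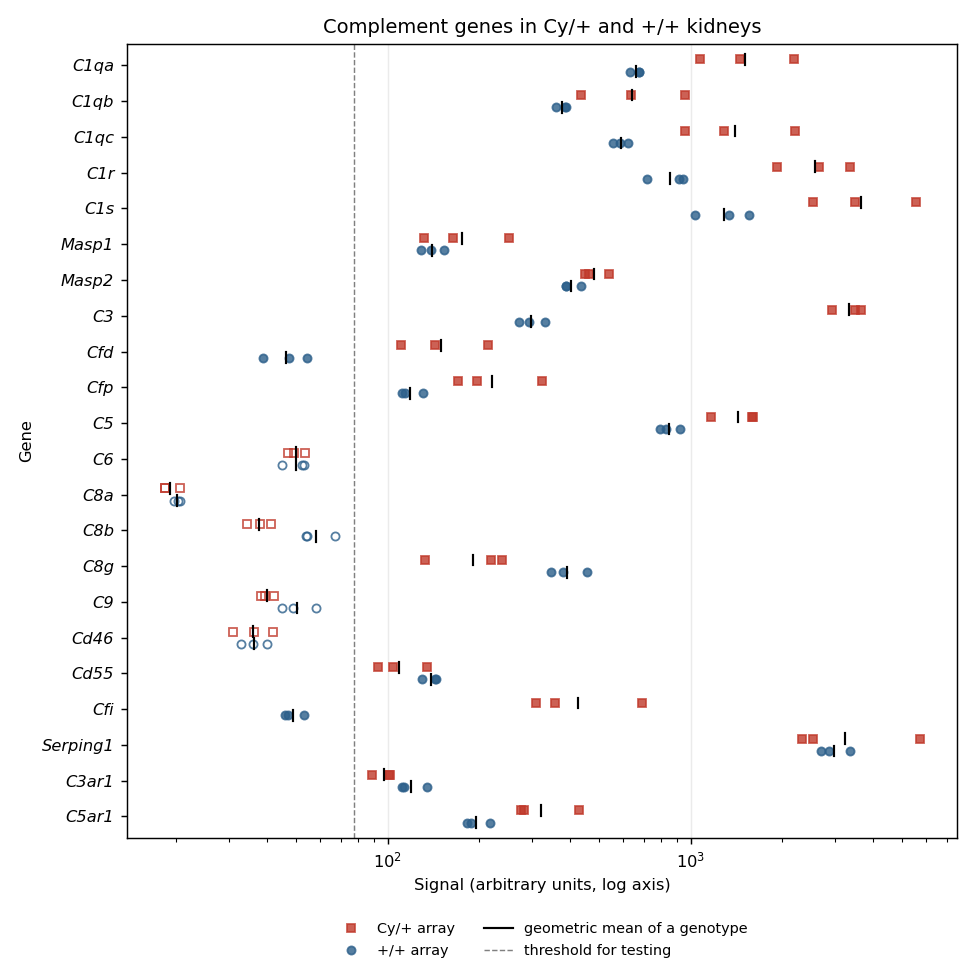
Per-array signal (arbitrary units, log axis) of the complement components, regulators and receptors with a probe set of their own. Squares are Cy/+ arrays, circles +/+ arrays, short lines geometric means, open symbols genes below the threshold for testing and the dashed line that threshold at 77.8. Signals of different genes are not comparable; for C3 the Cy/+ arrays lie at 2919 to 3645 and the +/+ arrays at 271 to 332, and the Cy/+ arrays of most other genes spread more widely than the +/+ arrays.

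Among the regulators, Cfi, the protease factor I that inactivates C3b and C4b, showed the widest gap. Its signals were 692, 356 and 309.9 in Cy/+ kidneys and 53.1, 47.1 and 46 in +/+ kidneys, where its geometric mean lay below the threshold. It was at least 5.45-fold higher in Cy/+ kidneys (adjusted p = 0.00011 from limma). C5ar1, the receptor of the anaphylatoxin C5a on myeloid cells, had 429, 282 and 276 in Cy/+ and 188, 183 and 218 in +/+ kidneys (1.64-fold higher, adjusted p = 0.0109). C3ar1, the receptor of C3a, ran the other way in its values without passing, at 89.1 to 102 in Cy/+ and 112 to 135 in +/+ kidneys (log2 fold change -0.30, adjusted p = 0.0527). Of the members that inhibit complement on cell surfaces only Cd55 was tested, and neither it nor the inhibitor of C1 passed. Cd55, which speeds the decay of the C3 convertases, had 135, 93 and 104 in Cy/+ and 143, 145 and 129.8 in +/+ kidneys, a log2 fold change of -0.35 (adjusted p = 0.0707). Its second probe set, dimmer than the threshold, had 35.1 to 42.4 in Cy/+ and 73.7 to 92.5 in +/+ kidneys. Serping1, the inhibitor of C1r and C1s, had 5700, 2326 and 2534 in Cy/+ and 2690, 3363 and 2872 in +/+ kidneys, so that its mean difference of 0.12 on the log2 scale (adjusted p = 0.749) rested on Cy/+ replicate 1 and was -0.29 without it. Cd46 stayed below the threshold in both genotypes.

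Among the coagulation genes, several that encode inhibitors and plasma proteins of the liver were far lower in Cy/+ kidneys. Serpinc1 encodes antithrombin, the main inhibitor of thrombin and factor Xa. It had signals of 105, 50 and 88.7 in Cy/+ kidneys, with a geometric mean of 77.5 just below the threshold, and of 2118, 1691 and 1877 in +/+ kidneys, and was at least 24.2-fold lower in Cy/+ kidneys (limma, adjusted p = 2.75e-05). Pzp, a proteinase-binding protein of the alpha-2-macroglobulin family, had 222, 94.3 and 312 in Cy/+ and 3539, 3357 and 3126 in +/+ kidneys, a log2 fold change of -4.16 ± 0.39 (adjusted p = 0.000127). In both genes each Cy/+ array lay far below each +/+ array. F2, the gene of prothrombin, had 62, 39.5 and 121 in Cy/+ and 567, 582 and 433 in +/+ kidneys, and was at least 6.72-fold lower in Cy/+ kidneys (adjusted p = 0.000414). Proc, the gene of the anticoagulant protein C, had 193, 129 and 234 in Cy/+ and 1063, 1033 and 887 in +/+ kidneys, a log2 fold change of -2.46 ± 0.21 (adjusted p = 8.86e-05). Serpinf2 encodes alpha-2-antiplasmin, the inhibitor of plasmin. It had 616, 289.7 and 813 in Cy/+ and 2797, 2980 and 2525 in +/+ kidneys, a log2 fold change of -2.39 ± 0.34 (adjusted p = 0.000769). In all 5 genes Cy/+ replicate 2 was the lowest array.

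The other lower genes belong to the tissue factor pathway. Tfpi, the inhibitor of tissue factor, had 389, 296 and 295 in Cy/+ and 704, 673 and 622 in +/+ kidneys, a log2 fold change of -1.04 ± 0.13 (limma, adjusted p = 0.00039), and its second probe set gave -0.46 (adjusted p = 0.0342). F3, tissue factor itself, had 963, 688 and 559 in Cy/+ and 1177, 1085 and 915 in +/+ kidneys, a log2 fold change of -0.55 (adjusted p = 0.0433). F3 was the called gene whose arrays overlapped, and it did not pass without Cy/+ replicate 2, Cy/+ replicate 3 or any +/+ replicate (adjusted p = 0.0523 to 0.135).

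The promoters of 4 lower genes and of C5 are shown because the same element stands in their letters. HNF1 factors, transcription factors of liver and kidney tubule, bind palindromes built on the element GTTAAT. This element, searched on both strands in the window of 250 bases before and 50 bases after the gene start (RefSeq, rat assembly GRCr8, the first start listed for each gene), occurred in 4 of the 6 lower genes that had a window (F2, Proc, Tfpi and Pzp), in 1 of 10 higher genes (C5), in 10 of the 39 members that had a window, and in 7.37% of the 27457 gene windows of this length. In F2 and in Proc it starts 38 bases before the gene start, in Tfpi 104, in Pzp 236 and 83, and in C5 169 and 30. The windows are chr3:98065197-98065496 for F2, chr18:24048892-24049191 for Proc, chr3:89980675-89980974 for Tfpi, chr4:163491286-163491585 for Pzp and chr3:38759419-38759718 for C5, all on the minus strand, written 5′ to 3′ along the gene with the element or its reverse complement in capitals:
F2: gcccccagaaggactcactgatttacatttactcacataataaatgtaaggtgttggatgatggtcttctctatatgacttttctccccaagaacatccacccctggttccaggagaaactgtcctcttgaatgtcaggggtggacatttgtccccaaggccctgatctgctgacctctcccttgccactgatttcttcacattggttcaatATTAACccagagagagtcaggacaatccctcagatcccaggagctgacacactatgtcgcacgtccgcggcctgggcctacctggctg
Proc: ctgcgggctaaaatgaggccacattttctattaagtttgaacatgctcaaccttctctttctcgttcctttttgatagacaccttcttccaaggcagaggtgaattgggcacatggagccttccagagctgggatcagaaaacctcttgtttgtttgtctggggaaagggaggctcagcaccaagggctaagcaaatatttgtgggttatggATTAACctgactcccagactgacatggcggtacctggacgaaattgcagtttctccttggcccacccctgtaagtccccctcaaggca
Tfpi: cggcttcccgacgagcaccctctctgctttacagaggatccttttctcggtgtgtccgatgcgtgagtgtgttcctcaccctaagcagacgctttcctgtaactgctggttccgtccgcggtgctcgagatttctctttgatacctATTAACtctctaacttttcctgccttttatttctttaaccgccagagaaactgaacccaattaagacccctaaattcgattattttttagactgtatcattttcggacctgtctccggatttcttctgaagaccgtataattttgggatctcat
Pzp: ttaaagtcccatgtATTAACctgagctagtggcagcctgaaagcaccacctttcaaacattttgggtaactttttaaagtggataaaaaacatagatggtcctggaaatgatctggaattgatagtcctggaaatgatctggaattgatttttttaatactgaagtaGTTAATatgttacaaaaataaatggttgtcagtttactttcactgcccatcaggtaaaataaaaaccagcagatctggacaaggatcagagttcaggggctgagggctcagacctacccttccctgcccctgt
C5: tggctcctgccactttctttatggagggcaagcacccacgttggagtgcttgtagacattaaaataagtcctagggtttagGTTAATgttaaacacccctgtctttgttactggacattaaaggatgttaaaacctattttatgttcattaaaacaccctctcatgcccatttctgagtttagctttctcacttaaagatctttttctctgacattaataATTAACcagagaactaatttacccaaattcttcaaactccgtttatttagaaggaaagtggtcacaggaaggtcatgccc
Of the other elements searched, none was in more than 1 of the 6 lower genes. The C/EBP element TTGCNNAA, of factors that drive acute-phase genes, was in 2 of 10 higher genes (C3 and C1r) and 1 of 6 lower genes (Serpinc1). It was in 12 of the 39 members, more than the 10 with GTTAAT, and in 10.5% of all windows. Of 13 members below the threshold for testing, 7 had the C/EBP element and 3 had GTTAAT. Of 6 members that did not pass, 1 had the C/EBP element and 2 had GTTAAT. The AP-1 element TGANTCA was in 3 of 10 higher genes (Cfp, F5 and F2r) and 7.33% of windows, the NF-kB element GGGNNNTCC in 2 (C1qb and Cfi) and 17.5%, and the STAT element TTCNNNGAA in 1 (C1qa) and 8.68%, and these 3 were in 0 of 6 lower genes. Of the 39 members, 9 had the AP-1, 10 the NF-kB and 6 the STAT element. Hits of different elements did not overlap in any member. A match of letters is a description and not a binding site. The window of C3, the component of largest measured change, is chr9:2201290-2201589 on the minus strand, with the C/EBP element, 104 bases before the start, in capitals:
C3: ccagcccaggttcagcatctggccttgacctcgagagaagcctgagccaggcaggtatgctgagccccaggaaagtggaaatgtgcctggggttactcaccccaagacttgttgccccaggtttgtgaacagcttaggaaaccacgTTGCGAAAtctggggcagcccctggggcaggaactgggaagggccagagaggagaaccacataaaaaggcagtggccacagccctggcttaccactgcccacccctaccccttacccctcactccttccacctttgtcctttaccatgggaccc

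A2m, whose protein traps proteinases and is an acute-phase protein in the rat, was higher. Its signals were 898, 379.6 and 533 in Cy/+ kidneys and 25.1, 31.6 and 31.8, far below the threshold, in +/+ kidneys. It was at least 7.28-fold higher in Cy/+ kidneys (adjusted p = 4.41e-05 from limma), opposite to Pzp of the same family. The thrombin receptor gene F2r had 5506, 4286 and 4954 in Cy/+ and 1724, 1813 and 2109 in +/+ kidneys, a log2 fold change of 1.38 ± 0.12 (adjusted p = 9.22e-05), while F2, the gene of the thrombin precursor, was lower. F5, whose product is the cofactor of factor Xa, had 789, 1569 and 2453 in Cy/+ and 421, 491 and 694 in +/+ kidneys, a log2 fold change of 1.47 ± 0.40 (adjusted p = 0.0138). Its highest Cy/+ array was 3.11 times its lowest, and the call was lost without +/+ replicate 1 (adjusted p = 0.0522). F8, the cofactor of factor IXa, had 1139, 788 and 751 in Cy/+ and 386, 380.5 and 445 in +/+ kidneys, a log2 fold change of 1.12 ± 0.17 (adjusted p = 0.000936). The other probe sets of F8 tested gave 0.46 (adjusted p = 0.0465) and -0.23 (adjusted p = 0.137), and their mean with the first gave 0.45. Of those below the threshold, one had 49.5 to 52.7 in Cy/+ and 73.2 to 84.5 in +/+ kidneys, and the arrays of the other overlapped. The size and the direction of the F8 difference thus depend on the probe set.

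Plat, Plau, Thbd and Pros1 did not pass by their brightest probe sets. Plat, the tissue plasminogen activator gene, had 2250, 1019 and 1038 in Cy/+ and 789, 837 and 785 in +/+ kidneys, with no overlap, and missed the threshold (log2 fold change 0.73, adjusted p = 0.0581 from limma). It passed as higher with array weights, with a replicate block and when any Cy/+ replicate was left out. Plau, the urokinase gene, gave 2 answers: its brightest probe set had 8601, 7930 and 10670 in Cy/+ and 7920, 7922 and 7995 in +/+ kidneys (0.18, adjusted p = 0.198), and its second had 2131, 2682 and 4113 in Cy/+ and 4964, 4569 and 4397 in +/+ kidneys (-0.69, adjusted p = 0.0264). Thbd, thrombomodulin, differed likewise between probe sets, at -0.16 (adjusted p = 0.705) by the brightest and 0.73 (adjusted p = 0.00818) by the second, which lay at 143 to 227 in Cy/+ and at 97.3 to 114 in +/+ kidneys. Pros1, the cofactor protein S, stood at -0.0088 ± 0.17 on the log2 scale (adjusted p = 0.967), with 522 to 857 in Cy/+ and 643 to 696 in +/+ kidneys.

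The chains of fibrinogen, neighbours in the genome, were dim or variable. Fga had 546, 135 and 320.3 in Cy/+ and 240.2, 341 and 202 in +/+ kidneys (log2 fold change 0.17, standard error 0.48, adjusted p = 0.761 from limma), and its Cy/+ arrays spread 4.03-fold. Fgb had 246, 70.0 and 118 in Cy/+ and 43.8, 53.5 and 42.9 in +/+ kidneys, and Fgg 47.5, 33.6 and 30 in Cy/+ and 25.8, 22.7 and 22.3 in +/+ kidneys. Both were below the threshold over the 6 arrays, with every Cy/+ array above every +/+ array. In all 3 chains Cy/+ replicate 1 was the highest Cy/+ array. F13a1, the subunit of the fibrin-crosslinking factor XIII, had 121, 68.9 and 109 in Cy/+ and 27.7, 39.2 and 31.2 in +/+ kidneys, and Plaur, the urokinase receptor, had 122, 102 and 73 in Cy/+ and 47.1, 51.4 and 46.2 in +/+ kidneys. Without a filter limma called 5 of the 15 members below the threshold higher (F13a1, Fgb, Plaur, Fgg and Procr, adjusted p = 0.000675 to 0.0303) and 2 lower. The others of the coagulation group, F9, F10, Plg, Serpind1 and Tfpi2, had signals of 18.9 to 66 in Cy/+ and of 20.0 to 40.9 in +/+ kidneys. The joint entry of Kng1, Kng2 and Kng2l1, kininogens that release kinins, is annotated with a transcript of Kng2, so it does not speak for Kng1 alone. It had 514, 269.8 and 616 in Cy/+ and 57.5, 61.7 and 46.5 in +/+ kidneys, at least 5.66-fold higher in Cy/+ kidneys (adjusted p = 0.000151 from limma).

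**Figure D3:**
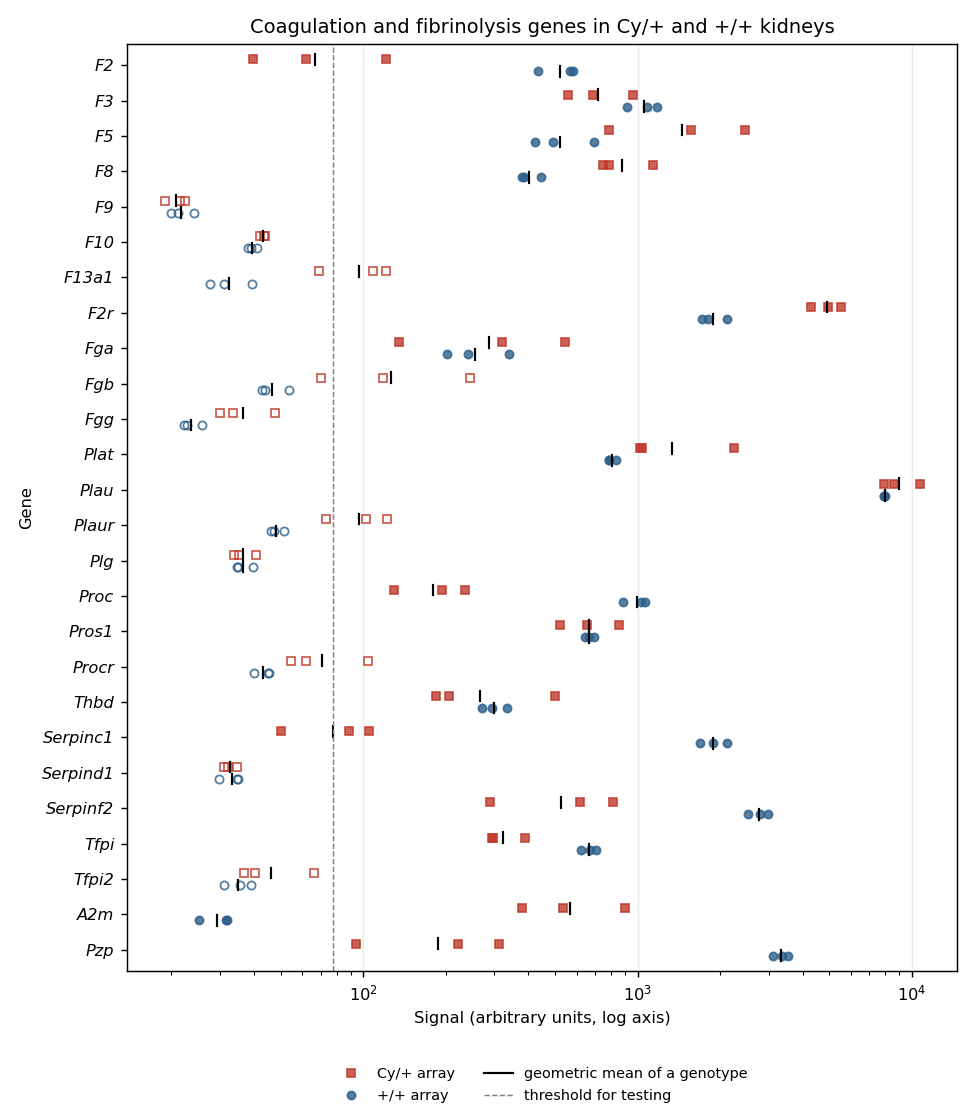
Per-array signal (arbitrary units, log axis) of the coagulation and fibrinolysis genes with a probe set of their own. Squares are Cy/+ arrays, circles +/+ arrays, short lines geometric means, open symbols genes below the threshold for testing and the dashed line that threshold at 77.8. A2m lies at 379.6 to 898 in Cy/+ and 25.1 to 31.8 in +/+ kidneys, Serpinc1 at 50 to 105 in Cy/+ and 1691 to 2118 in +/+ kidneys.

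Members differed more among the Cy/+ arrays than among the +/+ arrays, as did all genes by their median. The log2 SD within Cy/+ exceeded that within +/+ in 32 of 33 tested members, with a median of 0.48 in Cy/+ and 0.14 in +/+ kidneys, against 0.16 in Cy/+ and 0.083 in +/+ kidneys over all genes. Cy/+ replicate 1 was the highest Cy/+ array in 13 of the 15 higher members, C3 and F5 being the others, and Cy/+ replicate 2 the lowest in 5 of the 8 lower members. These counts of members were not made over all genes, so the traits may not be particular to the members. In whole tissue, fewer cells of a type and less RNA per cell cannot be told apart. All 9 tested macrophage markers were higher in Cy/+ kidneys, with Cd163 below the threshold in both genotypes. The summed signal of the list, mostly of Lyz2, was 12969 to 18063 in Cy/+ and 6442 to 7483 in +/+ kidneys. The median of the tested macrophage markers, relative to the +/+ mean, was 1.70, 1.16 and 0.96 on the log2 scale in the Cy/+ arrays. C1qa had 1.73, 1.14 and 0.70, C1qc 1.91, 1.14 and 0.71, and C1qb 1.34, 0.75 and 0.20. Of 8 fibroblast and myofibroblast markers tested 6 were higher, with sums of 18828 to 36970 in Cy/+ and 7373 to 8578 in +/+ kidneys, highest in Cy/+ replicate 1. The median of these markers was 2.06, 1.41 and 1.48 in the Cy/+ arrays. All 10 proximal tubule markers were lower, with sums of 6054 to 19145 in Cy/+ and 74835 to 81352 in +/+ kidneys. Their median was -2.28, -4.23 and -2.57 in the Cy/+ arrays, lowest in Cy/+ replicate 2, where Serpinc1, Pzp, F2, Proc and Serpinf2 were lowest as well. The log2 fold changes of these markers, from -4.44 to -1.46, span those of Pzp, F2, Proc and Serpinf2, and Serpinc1 lies below them. The part of cell makeup in the differences was not tested.

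**Figure D4:**
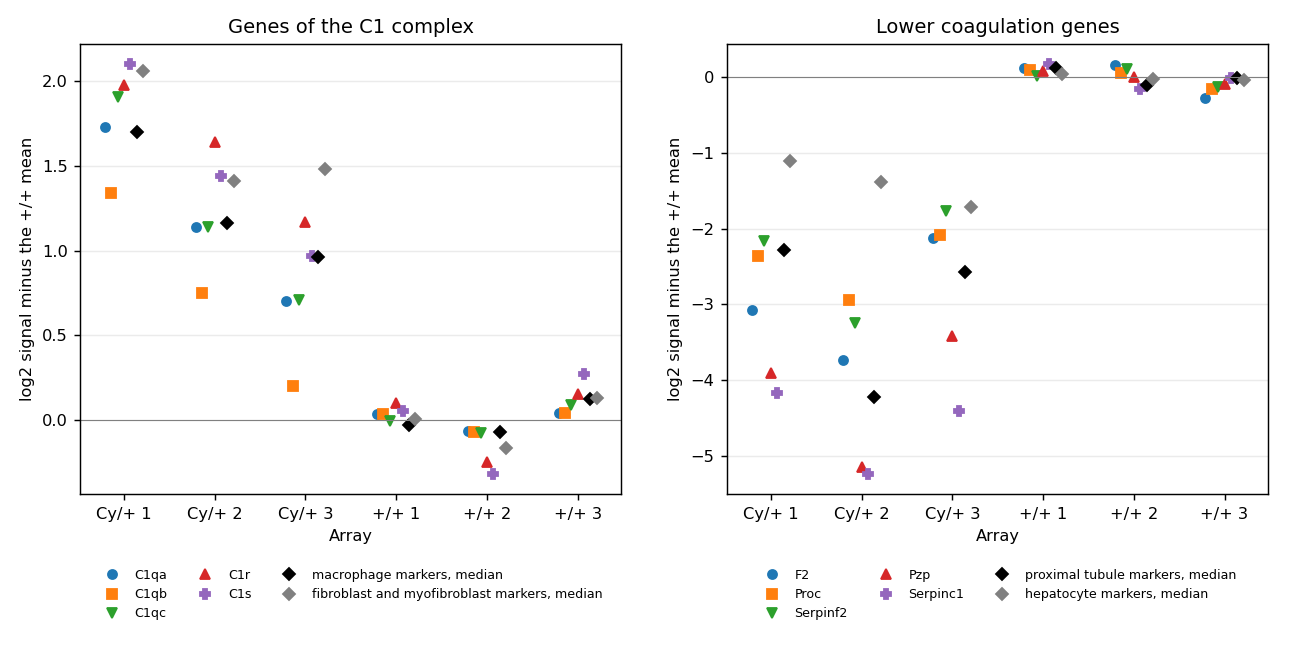
Log2 signal of each array minus the mean of the +/+ arrays, for genes of the C1 complex with macrophage and fibroblast markers (left) and for the lower coagulation genes F2, Proc, Serpinf2, Pzp and Serpinc1 with proximal tubule and hepatocyte markers (right). Coloured points are genes and diamonds are medians of the tested markers of a list. C1q and the macrophage markers are highest in Cy/+ replicate 1, and the coagulation genes shown and proximal tubule markers are lowest in Cy/+ replicate 2. The lower coagulation genes Tfpi and F3 are not shown. F3 was lowest in Cy/+ replicate 3 (signal 559), and Tfpi was near equal in Cy/+ replicates 2 and 3 (296 and 295).

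Markers of hepatocytes, the usual source of plasma proteins, were mostly dim. Alb, Apoa1, Apoa2, Serpina1, Ahsg and Hpx, 6 of 9 with a probe set, lay below the threshold in both genotypes, Apob and Apoc3 were lower, and Ttr did not pass. The summed signal of the list was 517 to 586 in Cy/+ and 1949 to 2036 in +/+ kidneys, most of the difference being that of Apoc3, at 111 to 196 in Cy/+ and 1417 to 1516 in +/+ kidneys. Of 9 endothelial markers 5 were lower and 4 did not pass, all with a log2 fold change below 0, with sums of 4875 to 6737 in Cy/+ and 8653 to 9596 in +/+ kidneys. Of 3 platelet markers tested, Itga2b and Gp9 were lower and Pf4 did not pass (log2 fold change 0.42), with Ppbp and Gp5 below the threshold and sums of 453 to 501 in Cy/+ and 590.0 to 715 in +/+ kidneys. Of 3 erythroid markers tested, Hbb and Alas2 were lower and Slc4a1 did not pass (log2 fold change 0.24), with sums, mostly of Hbb, of 1236 to 1758 in Cy/+ and 7944 to 10692 in +/+ kidneys. Of 9 markers of other nephron segments, present in both genotypes, 3 were lower (Calb1, Nphs1 and Podxl) and 6 did not pass. Their sums, of which Umod was the largest part, were 22271 to 35453 in Cy/+ and 30376 to 32294 in +/+ kidneys.

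Further genes of the same cascades were read from lists made by role. Of 10 other complement genes tested, 4 were higher and 3 lower (median 0.053), which is 70.0% called against 66.7% of all genes. Clu, whose product clusterin inhibits the membrane attack complex, had 13030, 12950 and 12840 in Cy/+ and 1373, 1310 and 1421 in +/+ kidneys (9.46-fold higher, adjusted p = 2.27e-06 from limma). Mbl1, a mannose-binding lectin, had 143, 110.4 and 152 in Cy/+ and 641, 746 and 558 in +/+ kidneys (log2 fold change -2.27, adjusted p = 4.63e-05), and Mbl2 did not pass (-0.085, adjusted p = 0.493). The scavenger collectin Colec12 was higher by 1.40, the integrin chains Itgb2 and Itgax of complement receptors by 0.69 and 0.68 on the log2 scale, and the chain Itgam did not pass (0.0011, adjusted p = 0.995). Cr1l did not pass either (log2 fold change 0.10, adjusted p = 0.493 from limma). Cd93 and C1qbp were lower as well, Cd93 at least 1.25-fold and C1qbp with a log2 fold change of -0.26, and the number lower was 1 when any +/+ replicate was left out.

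Of 15 other coagulation and fibrinolysis genes tested, 5 were higher and 8 lower (median -0.61), 86.7% called against 66.7% of all genes. Klk1, tissue kallikrein, had 310.1, 394 and 229.9 in Cy/+ and 3702, 3034 and 3385 in +/+ kidneys (log2 fold change -3.47, adjusted p = 2.54e-05 from limma). Hrg, the plasma protein histidine-rich glycoprotein, had one of -2.79 (adjusted p = 2.47e-05) and Vwf, the carrier of factor VIII, one of -1.94 (adjusted p = 8.32e-05). F8 was higher by its brightest probe set, but not by all. Anxa2 and S100a10 form the cell-surface complex that binds plasminogen and its tissue activator. Anxa2 had 8499, 7571 and 6589 in Cy/+ and 1485, 1732 and 1746 in +/+ kidneys (4.55-fold higher, adjusted p = 2.47e-05), and S100a10 was 3.8-fold higher (adjusted p = 3.55e-05). Serpina10, the inhibitor of factor Xa that works with protein Z, was at least 4.48-fold higher (adjusted p = 0.000279). The enzymes that prepare vitamin K-dependent clotting factors, Ggcx and Vkorc1, and the receptor pair that carries factors V and VIII out of the endoplasmic reticulum, Lman1 and Mcfd2, were all lower, with log2 fold changes of -0.61, -0.88, -1.11 and -0.67.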

How the data were processed

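Total RNA of whole kidneys (3 Cy/+ and 3 +/+ samples, grouped by their labels) was labeled with biotin by the authors in a one-cycle protocol and hybridized to Affymetrix rat genome 230 2.0 arrays, and the images were read with GCOS. The authors deposited a linear signal intensity per probe set, from 10.65 to 32240, and the submitters' processing notes name MAS5. The exact scaling between arrays is not given in the sources used here, and detection calls were not used. The number of arrays limits the precision.

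Signals were taken to log2 with no pseudocount. Of 31099 probe sets, 57 controls were left out and the 18625 with a mean at or above the 40th percentile (log2 signal 6.28) were tested with limma 3.58.1 in R 4.3.3 (lmFit, eBayes with an intensity trend, no covariate), with Benjamini-Hochberg adjustment over all of these and a threshold of 0.05. The fit was tested on simulated arrays. These had few changed probe sets and an equal spread in both genotypes, unlike the arrays here. Platform symbols named 20832 probe sets for 1 gene, 436 for several and left 9831 unnamed; updating them through Entrez gene IDs changed no member. A fold is Cy/+ over +/+, or +/+ over Cy/+ where called lower. Array values are given for members that passed, the largest changes first, for probe sets that disagree and for others chosen after their values were seen. The members, gene lists and sequence elements were chosen with earlier results of these data known. No gene set test was run. No source used here pairs the samples by replicate number, and the main fit did not pair them. The alternatives tried were other normalizations, filters, variance models and probe set rules, a replicate block and leaving out each array.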

Additional observations from a re-analysis of the deposited data

How the results depend on the processing

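Of the 23 called members, none changed direction under any of the 20 alternatives tried, and 17 passed the threshold under each alternative that could give a value. Over all 33 tested members, 600 of 650 alternative values kept their direction and side of the threshold. Part of these values was fixed in advance, so the count overstates stability. Updating the symbols changed no member, and a minimum of 2-fold could not change a direction. C1qb, Cfp, C5ar1, F3 and F5 did not pass by the methods' test after Benjamini-Hochberg adjustment (adjusted p = 0.113, 0.0559, 0.0518, 0.127 and 0.0725); the cause was not tested. Without a filter 3 complement components were lower and 9 coagulation genes and 7 other complement genes higher, since more genes were tested. With a filter at the 60th percentile, by the methods' test or at a minimum of 2-fold 1 complement regulator or receptor was higher, and the filter left 3 other coagulation genes higher. Regulators and receptors that were lower, 0 in the report, numbered 2 with quantile normalization, arrays centred on the median or array weights and 1 with no intensity trend; leaving out 1 array gave 0 to 1, and the 1 was Cd55 without Cy/+ replicate 1. At a minimum of 2-fold, 2 other complement genes were higher and 1 lower, and 4 other coagulation genes were lower. Leaving out 1 array gave 1 to 3 other complement genes lower, with 1 without any +/+ replicate.

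Among members that did not pass, the log2 fold change of Serping1 was -0.12 with array weights, that of Plau -0.26 and of Thbd 0.28 by the mean of their probe sets. Leaving out 1 array gave -0.29 to 0.36 for Serping1, -0.29 to 0.72 for Fga, -0.19 to 0.16 for Pros1 and -0.62 to 0.10 for Thbd. With the replicate block 16 members were higher and 8 lower, Plat being the one gained. Deviations from the genotype means had r of 0.147, -0.11 and -0.151 between same-numbered arrays and of -0.116 to 0.235 between the others. With so few arrays these values cannot show whether the samples were paired. The threshold of 77.8 is a percentile of signal and not a measured limit of detection. Whether members below it were detected was not tested.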
